A study of Arabidopsis thaliana with 6 samples.

Results

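MYC3, MYC4, AT1G04770 and PDF1.2 are 4 of the 13286 genes with their own probe set in the ATH1 annotation, and each is read by 1 such probe set. They were chosen as bHLH transcription factors of jasmonate and glucosinolate control, a gene linked to sulfur deficiency that the gene table lists by its locus only, and a defensin that serves as a jasmonate output. The plants were Arabidopsis thaliana of the Columbia-0 ecotype, 8 days old, and their RNA was measured on Affymetrix ATH1 arrays, with 3 biological replicates of the lib mutant and 3 of the wild type and no treatment of either. The title of the series places lib in the context of a partial isoleucine deficiency, and the labels name neither the affected gene nor the allele. All plants grew on vertical plates of half-strength Murashige and Skoog agar with sucrose under long days. The sample labels give whole seedlings as the tissue and the series' design text gives roots, and this difference was not settled.

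In jasmonate signalling, JAZ proteins hold back MYC transcription factors until the hormone, bound by its receptor COI1, has the JAZ proteins degraded. MYC2, MYC3 and MYC4 are related bHLH factors that then activate wound and defence genes and, together with MYB factors, the genes of glucosinolate synthesis. A second branch needs ethylene as well: EIN3 and its relatives switch on ERF factors, which activate the defensin gene PDF1.2, and MYC2 is known to restrain that branch.

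Of the 4 genes, MYC3 and AT1G04770 were lower in lib and MYC4 and PDF1.2 did not pass the test. MYC3 stood at 51.9% of its wild type level (95% interval 43.8 to 61.5) and AT1G04770 at 72.5% (58.4 to 90.0). MYC4 stood at 81.3% with an interval of 62.8 to 105 that spans no difference, and PDF1.2 at 123% with a wide interval of 59.5 to 254. Over all 22746 probe sets 20.7% passed at an adjusted p under 0.05 (limma, Benjamini-Hochberg over all probe sets), and 10.3% passed and were lower in lib. The 4 genes were picked with earlier results known, so their count of 2 is not read against these shares.

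Signals are given on the linear scale of the MAS5 values, and the fold changes and SDs on their log2 scale. The signal of MYC3 was 468, 568 and 520 on the lib arrays and 914, 1061 and 1022 on the wild type arrays. The highest lib array lay well below the lowest wild type array, and within each genotype the arrays were close together. Its mean log2 signal was 9.01 ± 0.14 (SD, n = 3) in lib and 9.96 ± 0.11 (SD, n = 3) in the wild type. The log2 fold change of MYC3 was -0.95 (SE 0.11, 95% interval -1.19 to -0.70, adjusted p = 0.000590). This equals a 1.93-fold lower level in lib, just short of the 2-fold limit that the design text of the series sets for its gene selection. Over all probe sets 2.5% passed the test with a fall of at least 2-fold, a set that leaves MYC3 out. The authors' deposited table gives MYC3 a ratio of lib to wild type of 0.519 and an unadjusted p of 0.000962, so by that ratio too it is outside a 2-fold selection.

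MYC4, the close relative of MYC3, had signals of 261, 322 and 215 in lib and 296, 320 and 355 in the wild type. The groups overlapped, because lib replicate 2 was higher than wild type replicates 1 and 2. Its mean log2 signal was 8.03 ± 0.29 (SD, n = 3) in lib and 8.33 ± 0.13 (SD, n = 3) in the wild type, and its log2 fold change was -0.30 (SE 0.16, 95% interval -0.67 to 0.07, adjusted p = 0.247). The lib arrays were thus more scattered than the wild type arrays for MYC4, with lib replicate 3 the lowest. The log2 fold change was -0.15 without lib replicate 3 and -0.45 without lib replicate 2. The authors' deposited table gives MYC4 a ratio of 0.822 and an unadjusted p of 0.211.

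Whether both factors changed by unequal amounts was tested on the difference between their log2 signals within each array, which leaves the levels of both probe sets out of the comparison. The log2 signal of MYC3 exceeded that of MYC4 by 0.84, 0.82 and 1.28 on the lib arrays and by 1.63, 1.73 and 1.53 on the wild type arrays. Each lib array had a smaller difference than each wild type array, and lib replicate 3 was nearest to the wild type. The change of MYC3 was lower than that of MYC4 by a log2 difference of -0.65, between group means of 0.98 ± 0.26 (SD, n = 3) and 1.63 ± 0.10 (SD, n = 3). With 1 array left out at a time this difference ranged from -0.80 to -0.57. A two-sided exact permutation test gave p = 0.1, the smallest value that 3 against 3 arrays allow, so this test could not pass 0.05 whatever the values and decides nothing here.

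**Figure D1:**
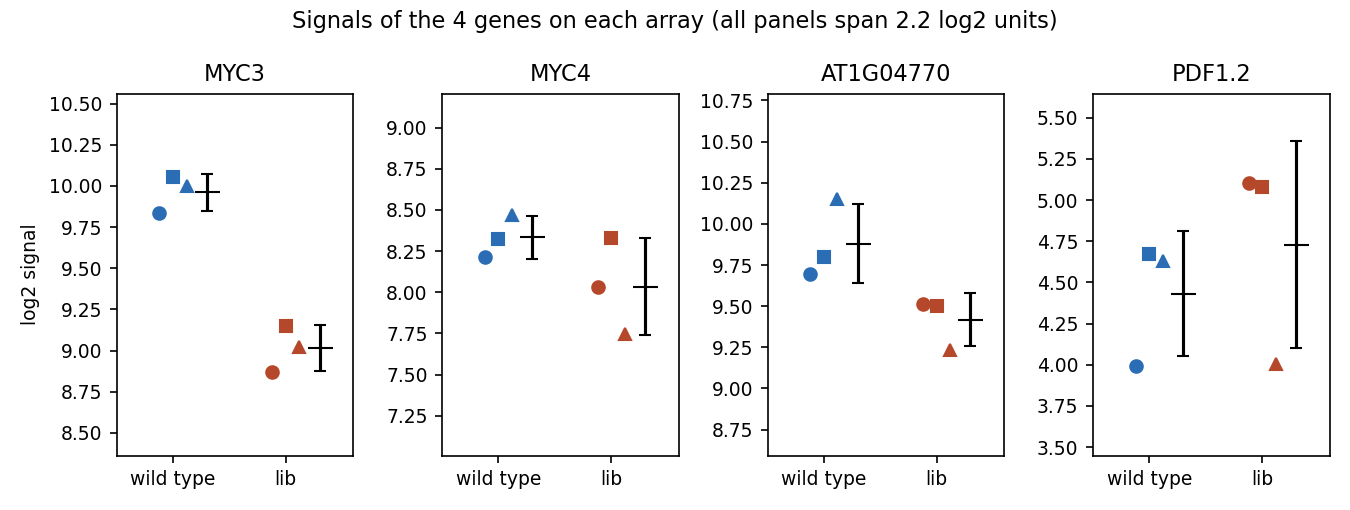
Log2 signal (vertical axis) of MYC3, MYC4, AT1G04770 and PDF1.2 on each wild type (blue) and lib (red) array, with circles, squares and triangles for replicates 1, 2 and 3 and black marks for the mean ± SD (n = 3). The MYC3 signals of the lib arrays, at a mean log2 of 9.01, are well apart from those of the wild type at 9.96; those of AT1G04770 lie closer without overlap, and those of MYC4 and PDF1.2 overlap.

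AT1G04770 had signals of 732, 726 and 601 in lib and 828, 889 and 1138 in the wild type. All lib arrays were below all wild type arrays, and the arrays farthest from the other genotype were lib replicate 3 and wild type replicate 3. The arrays of the genotypes did not overlap for 38.1% of all probe sets, and in 20.2% of all probe sets they did so with lib as the lower genotype. The mean log2 signal of AT1G04770 was 9.42 ± 0.16 (SD, n = 3) in lib and 9.88 ± 0.24 (SD, n = 3) in the wild type. Its log2 fold change was -0.46 (SE 0.14, 95% interval -0.78 to -0.15, adjusted p = 0.0428). This call was close to the threshold: it was lost when any one of the 3 lib arrays or wild type replicate 2 or 3 was left out, with adjusted p-values of 0.0844, 0.0733, 0.122, 0.0785 and 0.108 in that order, and it held without wild type replicate 1 (0.0480). The authors' deposited table gives AT1G04770 a ratio of 0.721 and an unadjusted p of 0.0584.

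PDF1.2, which encodes a small antifungal defensin, was dim. Its signal was 34.4, 33.9 and 16.1 on the lib arrays and 15.9, 25.5 and 24.7 on the wild type arrays. Both genotypes had an array near 16, lib replicate 3 and wild type replicate 1, and lib replicates 1 and 2 were the brightest. The mean log2 signal was 4.73 ± 0.63 (SD, n = 3) in lib and 4.43 ± 0.38 (SD, n = 3) in the wild type. The log2 fold change was 0.30 (SE 0.46, 95% interval -0.75 to 1.35, adjusted p = 0.713), an interval that holds both no change and a 2-fold rise. It was 0.66 without lib replicate 3 and 0.08 without wild type replicate 1. In the authors' deposited table PDF1.2 has a ratio of 1.27 and an unadjusted p of 0.528. PDF1.2 belongs to a group of near-identical defensin genes, and in the gene table PDF1.2c is its direct neighbour, so its probe set may also read transcripts of these copies.

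Around these genes, 93 genes of the pathways were listed, and 16 of them, including the 4, had a probe set of their own in the annotation. Beside the 4 genes, 1 of 12 passed the test, EIN3, which was lower in lib, against 20.7% of all probe sets that passed and 10.3% that passed and were lower. These shares apply to each count that follows, and with so few genes per list none of the counts is read as a result about its list. The arrays of the genotypes did not overlap for 4 of these 12, against the 38.1% over all probe sets. The listed JAZ repressors with COI1 and their partners (16 genes), the outputs of the MYC branch such as VSP2 (5 genes) and the MYB factors and other regulators of glucosinolate synthesis (9 genes) were not analysed here, since the annotation ties none of them to a probe set of its own.

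Of the 8 listed members of the MYC family, MYC3, MYC4 and AT4G00870 were the 3 measured. Of these 1 fell, MYC3, where 10.3% of all probe sets did. MYC2 was not among the 3, so no value is given for it. AT4G00870 had signals of 1.00 to 3.76 on the 6 arrays, at the floor of the scale. It was listed at 0 on 1 of them on the log2 scale, so no fold is given. The median log2 fold change of the 2 genes above the floor, MYC3 and MYC4, was -0.62, against -0.04 over all probe sets. This is only the midpoint of their values. With the fitted value of AT4G00870 included, the median was -0.30, which is the value of MYC4.

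Among 19 listed genes that make or modify jasmonate, 2 were measured and limma called neither, although 1 had an unadjusted p under 0.05. OPCL1, a ligase that activates precursors of jasmonate for their shortening in the peroxisome, had signals of 328, 304 and 323 in lib and 214, 236 and 268 in the wild type. The lib arrays were all higher than the wild type arrays. Its log2 fold change of 0.42 (SE 0.13, 95% interval 0.12 to 0.71) had an adjusted p of 0.0504, just short of the threshold, and it passed in 5 of 13 alternatives. JMT, which methylates jasmonate, was listed at 0 on the log2 scale on 4 of the 6 arrays, including all wild type arrays, and reached a signal of 3.91 on lib replicate 1. It is therefore given no fold.

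In the ethylene branch and its outputs, 6 of 13 listed genes were measured; 1 fell, where 10.3% of all probe sets did, none rose and 5 did not pass. EIN3, the central transcription factor of ethylene signalling, had signals of 1418, 1772 and 1471 in lib and 2240, 2033 and 2176 in the wild type. All lib arrays were below all wild type arrays, with lib replicate 2 the nearest to them. The log2 fold change of EIN3 was -0.47 (SE 0.11, adjusted p = 0.0132), and its call was lost without lib replicate 1 (adjusted p = 0.0682), without wild type replicate 1 (0.0560) and without the intensity trend (0.0773).

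The other defensins were dim or scattered. PDF1.2b, whose x_at probe set may cross-hybridise, had signals of 13.3 to 23.3 on the lib arrays and of 13.1 to 27.9 on the wild type arrays. Its log2 fold change was -0.29 (SE 0.49, adjusted p = 0.743), on the opposite side of 0 from PDF1.2 and as uncertain. PDF1.4 had signals of 98.8 to 108 on the lib arrays and of 64.9 to 127 on the wild type arrays, and its log2 fold change was 0.15 (SE 0.27, adjusted p = 0.756). PDF1.1 had signals of 2.18 to 6.78 on the lib arrays and of 1.00 to 1.56 on the wild type arrays. THI2.1, a thionin, had signals of 1.28 to 20.9 on the lib arrays and of 1.00 to 21.0 on the wild type arrays. Each of PDF1.1 and THI2.1 was listed at 0 on the log2 scale on 1 wild type array, and no fold is given. The median log2 fold change of the 4 genes above the floor on every array was -0.07, against -0.04 over all probe sets, and with the fitted values of PDF1.1 and THI2.1 it was 0.22, on the other side of 0.

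In the sulfur deficiency list, 5 of 23 genes were measured, and AT1G04770 was the 1 that passed, a share close to the 20.7% over all probe sets. The genes of sulfate assimilation stood close to their wild type level or slightly above it. APS3 and APS4, isoforms of the ATP sulfurylase that activates sulfate, had log2 fold changes of 0.26 (adjusted p = 0.210) and -0.04 (adjusted p = 0.850). For SIR, the sulfite reductase, the log2 fold change was 0.18 (95% interval -0.07 to 0.43, adjusted p = 0.304). APS3 alone among these 3 had lib arrays, at signals of 223 to 260, wholly above the wild type arrays at 194 to 210. BGLU28, a beta-glucosidase known to be induced when sulfur is short, varied from 14.2 to 56.0 in lib and from 9.19 to 34.7 in the wild type, and its log2 fold change of 0.26 (SE 0.68, adjusted p = 0.841) had an interval of -1.27 to 1.79. The median log2 fold change of the 5 genes was 0.18.

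**Figure D2:**
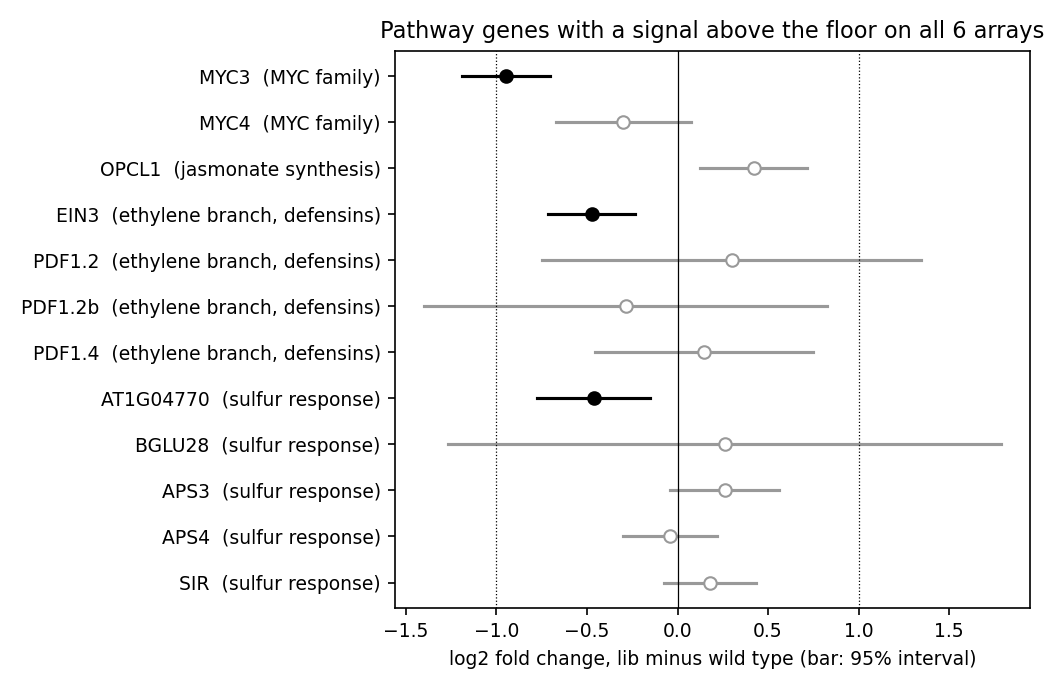
Log2 fold change of lib minus wild type (horizontal axis) with its 95% interval for the 12 pathway genes whose signal was above the floor on all 6 arrays; filled black points passed an adjusted p under 0.05 and dotted lines mark a 2-fold change. MYC3 at -0.95, EIN3 at -0.47 and AT1G04770 at -0.46 passed, and the intervals of PDF1.2, PDF1.2b and BGLU28 are the widest.

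Markers of the shoot and of the root were read on the same arrays because the tissue was not settled. Of 7 listed shoot markers, 4 were measured, 2 of them fell (LHCB4.1 and RCA, where 10.3% of all probe sets fell), none was at 0, and their summed signal was 1092 to 1492 on the lib arrays and 1658 to 2636 on the wild type arrays. Of 7 listed root markers, 3 were measured, 1 of them fell (PYK10), none was at 0, and their summed signal was 13542 to 15628 on the lib arrays and 17811 to 21898 on the wild type arrays. The root sum is mostly PYK10, at signals of 11847 to 20685; EXPA7 and EXPA18, expansins of root hairs, stood at log2 fold changes of 0.20 (adjusted p = 0.444) and -0.0041 (adjusted p = 0.991). The shoot sum and PYK10 were thus lower in lib, as were MYC3, AT1G04770 and EIN3, and their part in these results was not tested. In whole tissue, fewer cells of a type and less RNA per cell cannot be told apart. The median log2 signal of the arrays lay between 7.40 and 7.52. Of the shoot markers, PRK and SBPASE had mean log2 signals below this range: 5.34 and 5.23 for lib, 6.03 and 5.51 for wild type. LHCB4.1 and RCA stood above it, at 9.76 and 8.56 for lib and at 10.38 and 9.19 for wild type. The measured root markers all stood above it. Which tissue these levels point to was not tested. Probe sets listed at 0 numbered 467, 734 and 539 on the lib arrays and 405, 411 and 438 on the wild type arrays. Each lib array thus had more of them than each wild type array, and the effect of this on dim genes was not tested.

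The genes whose profile over the 6 arrays was most like that of each gene were found by the root mean square difference of the log2 signals, each centred on its own mean. Candidates were the 6361 other probe sets of 1 gene whose higher group mean was above the median of all probe sets. For PDF1.2 there were 6362, since it is not bright enough to be a candidate itself. This likeness is a description over 6 arrays. For MYC3 and AT1G04770 the difference between the genotypes weighs most in it, and for MYC4 and PDF1.2 the scatter within the genotypes does. The changes and p-values of the genes that the likeness picks largely follow from that choice and are no separate evidence. For MYC3 these were SDP1, a lipase that opens the breakdown of stored oil, at a root mean square difference of 0.048, AAE16, an acyl-activating enzyme, at 0.049, and AT5G08520 at 0.052, where the median candidate stood at 0.51. All of them were lower in lib, with log2 fold changes of -1.02, -0.91 and -0.99 (adjusted p = 0.000477, 0.00597 and 0.000420).

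For MYC4 the nearest were AT1G33970 at 0.029, AT3G02300 at 0.036 and ATN1 at 0.044, with a median candidate of 0.31. Each had its lowest signal on lib replicate 3 and none passed (log2 fold changes of -0.33, -0.26 and -0.35). For AT1G04770 the nearest were AT4G36860 at 0.053, AT4G19370 at 0.054 and AT1G52420 at 0.054, with a median candidate of 0.34. Of these, AT4G19370 passed (-0.51, adjusted p = 0.0353), and AT4G36860 (-0.39, adjusted p = 0.0768) and AT1G52420 (-0.48, adjusted p = 0.0620) did not. PDF1.2 had no neighbour as near among these candidates, which leave out probe sets as dim as its own. AT3G51720 stood at 0.14, AT5G65840 at 0.17 and AT4G13220 at 0.17, with a median candidate of 0.49, and none passed.

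**Figure D3:**
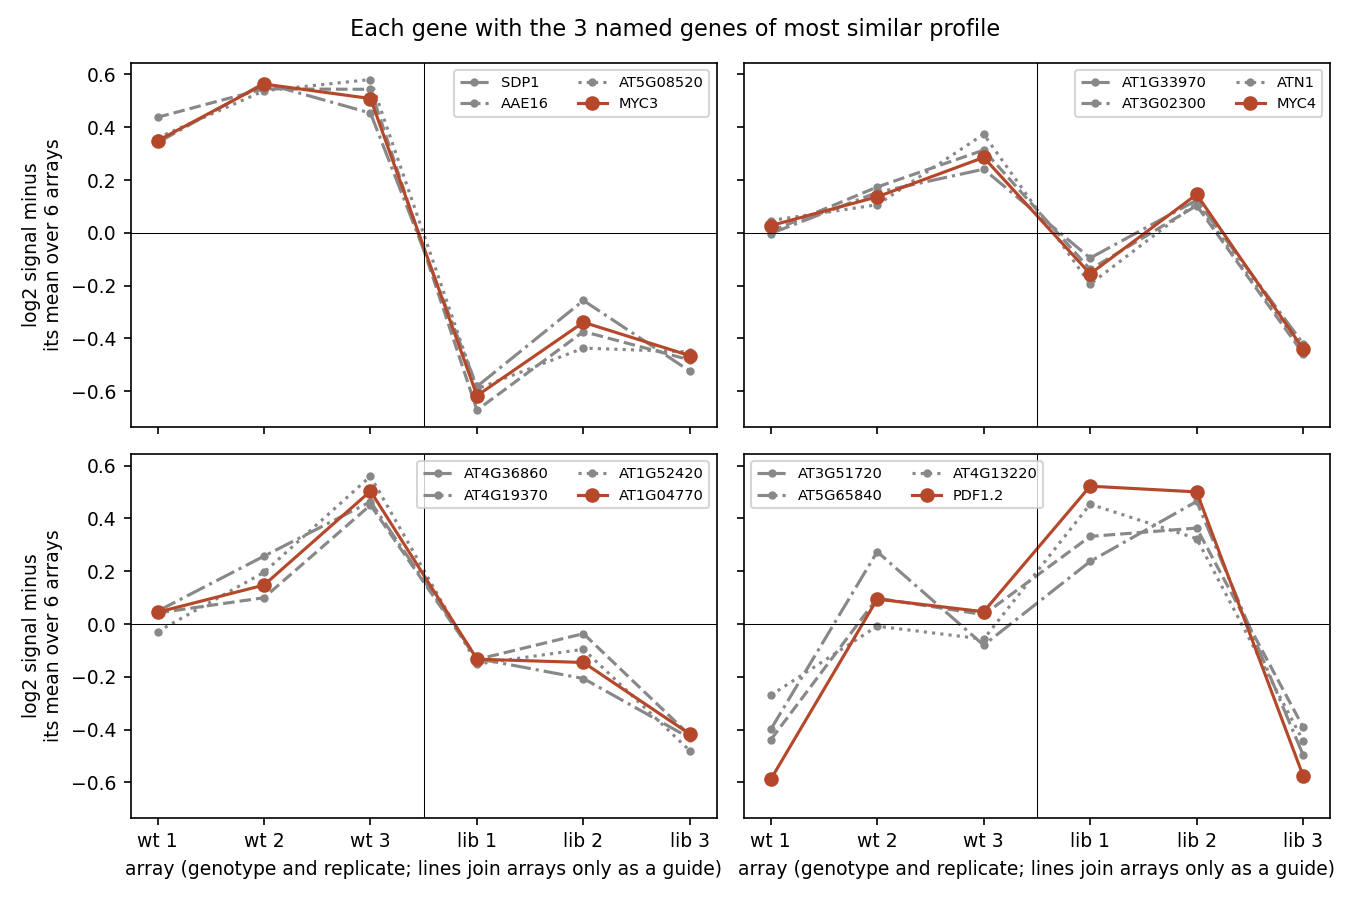
Log2 signal minus its mean over the 6 arrays (vertical axis) for each of the 4 genes (red) and the 3 named genes of most similar profile (grey), by array; lines are only a guide, since replicates have no order. The MYC3 panel shows a step between the genotypes, the MYC4 and AT1G04770 panels a lower lib replicate 3, and PDF1.2 is matched least closely, at root mean square differences of 0.14 to 0.17.

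Across 13 alternative settings, MYC3 kept its direction and its call in each, with log2 fold changes between -1.01 and -0.88 and adjusted p-values between 0.000153 and 0.0205. AT1G04770 was lower in lib in each of the 13 and passed in 6, with adjusted p-values between 0.0228 and 0.144. MYC4 was on the low side in each of the 13 and passed in 0, with log2 fold changes between -0.45 and -0.15 (limma, unadjusted p = 0.102 as reported). PDF1.2 was on the high side in each of the 12 settings that kept its probe set and passed in 0, with log2 fold changes between 0.08 and 0.66 (limma, unadjusted p = 0.536 as reported).

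**Figure D4:**
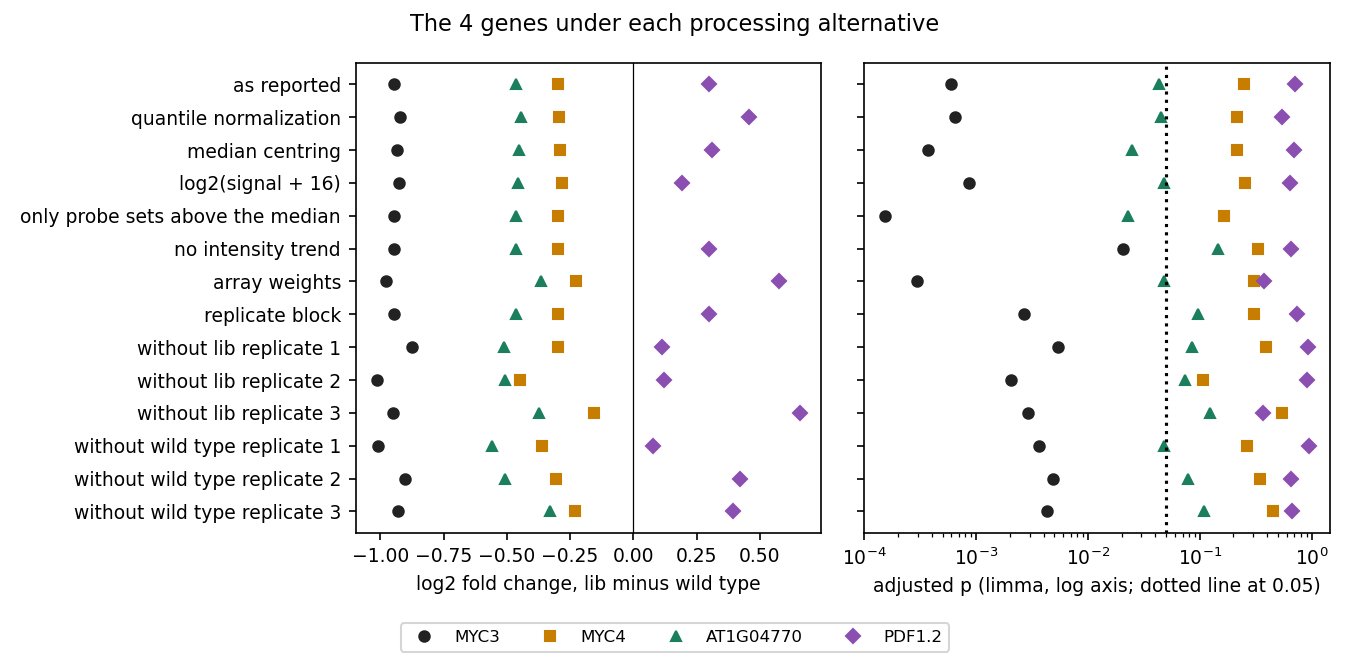
Log2 fold change of lib minus wild type (left) and limma adjusted p on a log axis (right) for the 4 genes under the reported setting and each alternative, one row per setting. MYC3 stays left of the dotted line at 0.05 in every row, AT1G04770 crosses it in 7 of 13 alternatives, and MYC4 and PDF1.2 stay to its right.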

How the data were processed

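Total RNA of 3 lib and 3 wild type samples was hybridised to 1 ATH1 array each. The authors deposited log2 signals, for which the submitters' processing notes name MAS5 (its version is not given in the sources used here), and these were used without further normalization. A second table holds the authors' own comparison: for each probe set, an unadjusted p-value and the lib to wild type ratio. Names came from the platform annotation and the TAIR10.1 gene table: 13513 had 1 gene, 503 several and 8730 none. That annotation fixes which pathway genes could be read.

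All 22746 probe sets were fitted in R 4.3.3 with limma 3.58.1 (lmFit, then eBayes using an intensity trend, two-sided), and an adjusted p under 0.05 (Benjamini-Hochberg) was called a change. In data simulated from these arrays with independent normal noise, the fit recovered 145 of 200 probe sets changed by a log2 of 1, with 6 false calls. The 200 were drawn only from probe sets above the median signal, so this recovery does not cover dim genes such as PDF1.2. The precision is limited by having 3 arrays per group. The members, gene lists and alternatives were chosen with earlier results of these data known. Named were the 4 genes, every measured gene of the lists and the 3 probe sets of most similar profile per gene. The replicate numbers were not taken as pairs, because nothing says that they mark a shared batch. Same-numbered replicates also did not deviate together (correlations of 0.05, -0.20 and -0.23). Alternatives were quantile normalization, median centring, log2(signal + 16), only probe sets above the median signal, no intensity trend, array weights, the replicate number as a block, an adjusted p under 0.01, an added 2-fold limit and each array left out in turn.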

Additional observations from a re-analysis of the deposited data

How the results depend on the processing

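Of the 4 genes, MYC3, MYC4 and PDF1.2 kept their direction and their side of the 0.05 threshold in every alternative fit run, although MYC3, at 1.93-fold, misses the added 2-fold limit; PDF1.2 could not be run among the probe sets above the median signal, which leave it out. AT1G04770 kept its direction at -0.46 but lost its call in the fit that drops the intensity trend (adjusted p = 0.144), and with the replicate block the value was -0.46 again at an adjusted p of 0.0969; leaving out 1 array gave -0.56 to -0.33, and the call was lost in 5 of 6 such fits. The block moved no other of the 4 genes across the threshold. Among the pathway genes 3 changed as reported, and 1 changed when the intensity trend was dropped, likewise 1 without lib replicate 1 (1 to 3 over the arrays left out). The probe sets changed numbered 4708 as reported, 2383 with no intensity trend, 2257 at an adjusted p under 0.01, 1122 with the 2-fold limit added and 2705 (without lib replicate 1) to 3747 with 1 array left out. Genes without a call turned sign in some fits that left out 1 array: PDF1.4 ran from -0.11 to 0.37, BGLU28 from -0.34 to 0.65 and APS4 from -0.14 to 0.035. Beyond these fits, the cause of the lost calls was not tested. The log2 change of MYC3 minus that of MYC4, on which the permutation test could not decide, ranged from -0.80 to -0.57 over the arrays left out. Dim signals limit PDF1.2, PDF1.2b and BGLU28.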

Other observations

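The genes next to the 4 genes were looked at after the values were seen, with their order taken from the TAIR10.1 gene table. MYC3 has AGD9 as its direct neighbour and UBP21, a ubiquitin-specific protease, beyond it, and MYC4 has AGD8 and UBP20 in the same order, so the relatives lie in the genome beside relatives of each other. UBP21 (log2 fold change 0.15, adjusted p = 0.729) and UBP20 (-0.02, adjusted p = 0.949) did not pass.

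On the other side of MYC3, AT5G46780 was lower in lib. Its signal was 722, 843 and 620 in lib and 1526, 1334 and 1712 in the wild type, with no overlap, and its log2 fold change was -1.07 (SE 0.14, adjusted p = 0.000954). AT5G46770, which lies between MYC3 and AT5G46780, was dim, with signals of 2.07 to 15.1 over the 6 arrays, and did not pass (adjusted p = 0.335). Beside PDF1.2, AT5G44410 had signals of 91.4, 100.0 and 73.7 in lib and 184, 246 and 172 in the wild type. Its log2 fold change was -1.18 (SE 0.21, adjusted p = 0.00478), whereas PDF1.2 itself did not pass. Of the 9 neighbours measured, these 2 changed, against 20.7% of all probe sets. The near neighbour of AT1G04770 that was measured, AT1G04780, stood at -0.19 (adjusted p = 0.250).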
